A study of Mus musculus with 6 samples.

Results

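The insulin-like growth factor (IGF) genes were examined in heart tissue of male mice: the ligands *Igf1* and *Igf2*, the receptors *Igf1r* and *Igf2r*, and the binding proteins *Igfbp2*, *Igfbp3*, *Igfbp4*, *Igfbp5*, *Igfbp6* and *Igfbp7*. They were chosen by name, and all 10 were among the 17441 genes listed with a value above 0 in at least 1 of 6 RNA-seq libraries. Of the 10 genes, 9 reached 1 FPKM in 2 or more libraries and were tested, and *Igfbp2* did not. FPKM scales the fragments of a gene by the length of its transcript and by the fragments mapped in the library, so that levels can be set side by side between genes.

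The study compared 3 groups of 2 libraries each at 3 days after surgery, all from 12-week-old male mice on a C57BL/6 background by the labels and the study's methods. WT sham hearts were wild type for *Card9* and had a sham operation, WT MI hearts were wild type with a myocardial infarction (MI) made by tying off the left coronary artery, and the third group carried the label Card9 KO with the same infarction (below, KO-labelled MI, drawn as Card9 KO MI in the plots). *Card9* encodes an adapter of innate immune signalling, and the sources used here name no promoter or cell type that limits its deletion. The tissue was bulk heart from below the ligature, no Card9 KO sham group was analysed here, and the labels do not say how many hearts entered a library or that the replicates were separate animals, so p-values measure the spread between these libraries, which may be technical.

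IGF1 and IGF2 are secreted peptides that act through the receptor tyrosine kinase IGF1R, which passes the signal on to the phosphatidylinositol 3-kinase and AKT branch and to the RAS and ERK branch. IGF2R, the cation-independent mannose 6-phosphate receptor, takes up IGF2 for degradation and sorts lysosomal enzymes. The binding proteins hold IGFs in the extracellular space and matrix and release them when proteases cut them, and in heart muscle the pathway is known for growth and survival of cardiomyocytes and for repair by fibroblasts and macrophages.

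Libraries held an estimated 3001059 to 4286477 fragments in listed genes, and 3 fragments on a 2 kb transcript were worth 0.350 to 0.500 FPKM. *Card9* itself stood in WT sham at 0.99 and 1.03 FPKM, in WT MI at 3.39 and 5.08, and in KO-labelled MI at 9.85 and 6.94. The level in KO-labelled MI was no lower than in WT MI (log2 difference 0.84, SE 0.23, limma adjusted p = 0.112). The RNA level thus does not show the deletion that the label names, and the deleted part of the gene is not given in the sources used here. FPKM of a whole gene does not measure protein. The study probed CARD9 protein by western blot in macrophages grown from bone marrow of WT and Card9 KO mice, and not in these libraries. *Card9* shares 87 exon bases with the noncoding gene *Gm13562* on the opposite strand, whose reads cannot be told apart there, since the use of strand is not given. Every direction against WT MI below rests on that label. The markers of the labelled tissue were present, since the 8 cardiomyocyte markers summed to 46276 and 48383 FPKM in WT sham. Their sum was 28890 and 29811 FPKM in WT MI and 24041 and 28066 in KO-labelled MI.

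The upstream sequence is shown for the 3 binding protein genes whose transcripts rose after infarction, so that their starts can be read side by side. They shared the rise over WT sham and not the order of the infarct groups. Each is the 250 bases before the RefSeq start site (RefSeq promoter table of GRCm38.p6), written 5′ to 3′ on the gene's strand and placed in mm9 by its 1 exact match, at chr5:77837071-77837320 (minus strand) for *Igfbp7*, chr11:7113927-7114176 (minus strand) for *Igfbp3* and chr11:98902308-98902557 (plus strand) for *Igfbp4*. Capitals mark a GC box (GGGCGG or its reverse complement CCGCCC) or a TATA box (TATAAA), and none of the marked motifs overlap.
Igfbp7: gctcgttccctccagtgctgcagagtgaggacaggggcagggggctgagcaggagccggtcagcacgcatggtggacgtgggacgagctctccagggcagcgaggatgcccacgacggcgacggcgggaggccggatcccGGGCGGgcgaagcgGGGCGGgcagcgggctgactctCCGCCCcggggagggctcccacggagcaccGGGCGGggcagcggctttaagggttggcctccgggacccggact
Igfbp3: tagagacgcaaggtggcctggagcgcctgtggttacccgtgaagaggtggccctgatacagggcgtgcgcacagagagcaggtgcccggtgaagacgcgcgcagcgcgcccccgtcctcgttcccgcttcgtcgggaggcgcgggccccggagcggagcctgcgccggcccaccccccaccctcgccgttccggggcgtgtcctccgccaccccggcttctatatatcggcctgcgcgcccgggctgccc
Igfbp4: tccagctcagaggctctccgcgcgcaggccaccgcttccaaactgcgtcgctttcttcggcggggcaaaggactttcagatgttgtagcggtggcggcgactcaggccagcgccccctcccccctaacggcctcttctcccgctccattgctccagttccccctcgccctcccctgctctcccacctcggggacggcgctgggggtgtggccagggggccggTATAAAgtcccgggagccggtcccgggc
*Igfbp7* carried 4 GC boxes, which lay 104, 90, 68 and 38 bases before the start site, and *Igfbp4* carried 1 TATA box 22 bases before it. In the *Igfbp3* window, with a GC content of 73.2% and 32 CpG dinucleotides, none of the searched motifs was found. The search took only the exact letters TATAAA as a TATA box, so the stretch tatatat near the end of this window was not counted. Both strands were searched. Of all 32851 promoter windows of this length in the table, the TATA box was found in 12.4% and the GC box in 32.7%. The other motifs searched were the CCAAT box (33.8% of all windows), the AP-1 motif TGANTCA (6.75%), the STAT motif TTCNNNGAA (7.02%) and the NF-kB motif (3.9%). A match is a description of the letters and not evidence of a bound factor.

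To learn how the infarct alone changed the IGF genes, WT MI was compared with WT sham. Both ligands, *Igf1r* and the binding proteins *Igfbp3*, *Igfbp4* and *Igfbp7* rose, and *Igf2r*, *Igfbp5* and *Igfbp6* did not pass the test. Thus 6 of the 9 tested genes rose and 0 fell, where 27.7% of all 13120 genes tested were called higher and 9.39% lower (limma, Benjamini-Hochberg adjusted p below 0.05). The libraries of the groups did not overlap for 7 genes that were higher and 0 that were lower, beside 48.3% and 22.1% of all genes tested. The study's screen, rebuilt here with its stated limits (fold change of at least 2 and a diverge probability of at least 0.8), called 2 of them higher, *Igfbp3* and *Igfbp7*, beside 6.06% of the genes it covered. The median log2 fold change of the 9 genes was 0.56, beside 0.19 over all genes tested. Another scaling of the libraries moved that overall median to 0.059, to -0.004 or to -0.081, and under each of these 3 scalings 4 of the 9 genes rose, as they did without WT sham replicate 2 or without WT MI replicate 1. Relative to the median of all genes, over the 4 scalings *Igfbp3* stood 2.36 to 2.40 higher, *Igf1* 1.07 to 1.14, *Igfbp7* 0.93 to 1.09, *Igfbp4* 0.48 to 0.60, *Igf1r* 0.32 to 0.38 and *Igf2* 0.28 to 0.34 on the log2 scale.

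**Figure D1:**
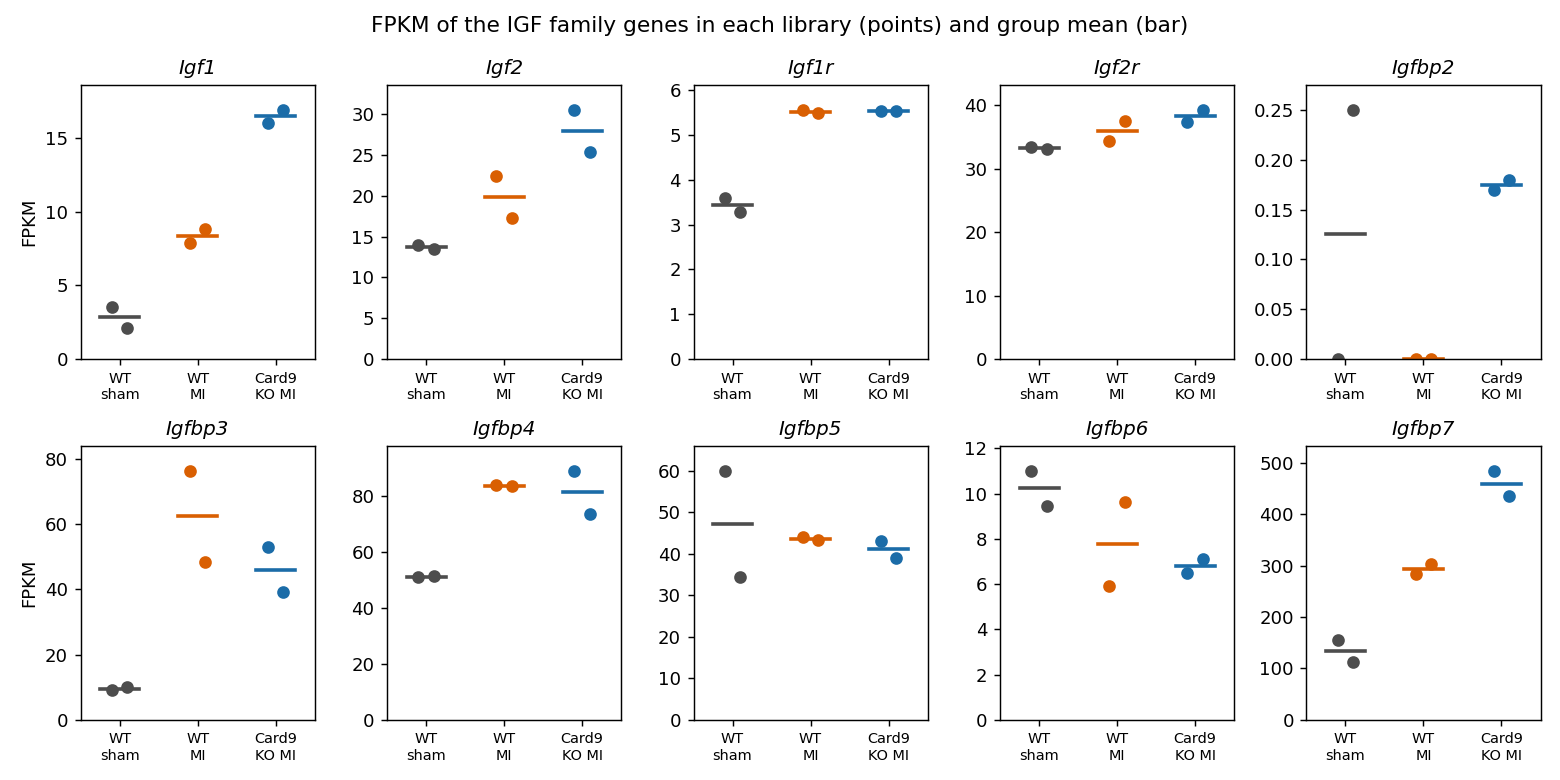
FPKM of the 10 IGF genes in each library, 1 panel per gene, with its own axis starting at 0; points are libraries and horizontal bars are group means of 2 libraries. *Igf1*, *Igf2* and *Igfbp7* lie lowest in WT sham and highest in KO-labelled MI with no overlap between groups, whereas the mean of *Igfbp3* is highest in WT MI.

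*Igf1* (NCBI gene 16000; mm9 chromosome 10, 87321010 to 87399792, plus strand) is the gene of the ligand made in the liver for the circulation and by fibroblasts and macrophages in injured tissue. It stood in WT sham at 3.55 and 2.12 FPKM, in WT MI at 7.86 and 8.84, and in KO-labelled MI at 16.01 and 16.91. The 3 groups did not overlap. *Igf1* rose 2.95-fold in WT MI over WT sham by the group means, with a log2 fold change of FPKM + 1 of 1.31 (SE 0.20, 95% confidence interval 0.85 to 1.76, limma adjusted p = 0.00184). These values rested on about 45.3 to 79.8 fragments per WT sham library and 225.3 to 496.4 in the other groups.

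*Igf2* (NCBI gene 16002; mm9 chromosome 7, 149836673 to 149852721, minus strand) is the gene of the fetal growth factor, which is expressed from the paternal copy. Its levels were 14.02 and 13.49 FPKM (WT sham), 22.44 and 17.34 (WT MI) and 30.54 and 25.41 (KO-labelled MI), again with no overlap between the groups. The rise in WT MI was 1.45-fold by the means (log2 fold change 0.49, SE 0.15, interval 0.14 to 0.85, limma adjusted p = 0.0385). It was not called in 8 of 17 alternative settings, among them all 3 other scalings and the fits without WT sham replicate 1, WT sham replicate 2 or WT MI replicate 1 (adjusted p = 0.0916, 0.127 and 0.219). *Igf2* shares 98 exon bases with the antisense gene *Igf2as*, and whether the counting used strand is not given in the sources used here, so reads of the pair cannot be told apart.

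The ratio of *Igf1* to *Igf2* FPKM was 0.25 and 0.16 (WT sham), 0.35 and 0.51 (WT MI) and 0.52 and 0.67 (KO-labelled MI). *Igf2* was thus the more abundant ligand transcript in all 6 libraries, and the ratio was lowest in WT sham. The imprinted noncoding gene *H19*, the neighbour of *Igf2* that is expressed from the maternal copy, stood in WT sham at 20.11 and 15.83 FPKM, in WT MI at 55.1 and 46.39, and in KO-labelled MI at 74.6 and 59.09. *H19* rose in WT MI (log2 fold change 1.45, SE 0.16, limma adjusted p = 0.000479), and the ratio of *H19* to *Igf2* was 1.43 and 1.17 in WT sham against 2.46 and 2.67 in WT MI and 2.44 and 2.33 in KO-labelled MI.

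*Igf1r* (NCBI gene 16001; mm9 chromosome 7, 75097713 to 75371484, plus strand), the signalling receptor, stood in WT sham at 3.59 and 3.28 FPKM, in WT MI at 5.56 and 5.48, and in KO-labelled MI at 5.54 in both libraries. It rose 1.61-fold in WT MI over WT sham (log2 fold change 0.56, SE 0.15, interval 0.21 to 0.91, limma adjusted p = 0.0228). The call was lost in 6 of 16 alternative settings, namely the 3 other scalings and the fits without WT sham replicate 2, WT MI replicate 1 or WT MI replicate 2 (adjusted p = 0.0881, 0.0996 and 0.0874). *Igf1r* lay at 41.2 to 99.3 fragments per library.

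*Igf2r* (NCBI gene 16004; mm9 chromosome 17, 12875272 to 12962530, minus strand), the clearance receptor, was measured at 33.36 and 33.01 FPKM (WT sham), 34.37 and 37.56 (WT MI) and 37.26 and 39.24 (KO-labelled MI). Its difference between WT MI and WT sham was 0.11 on the log2 scale (SE 0.10, interval -0.12 to 0.34, limma adjusted p = 0.418), and the sign turned under the other scalings (-0.11, -0.08 and -0.03). The ratio of *Igf2r* to *Igf1r* FPKM was 9.29 and 10.1 in WT sham and 6.18 to 7.08 in the 4 infarct libraries.

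*Igfbp7* (NCBI gene 29817; mm9 chromosome 5, 77778265 to 77837070, minus strand) is the gene of a vessel and stromal protein that binds IGFs only weakly. It was the most abundant of the 10 transcripts in every group, in WT sham at 154.50 and 112.69 FPKM, in WT MI at 283.90 and 302.60, and in KO-labelled MI at 484.90 and 434.54. The groups did not overlap. *Igfbp7* rose 2.19-fold in WT MI (log2 fold change 1.15, SE 0.15, interval 0.80 to 1.49, limma adjusted p = 0.000932). It shares 85 exon bases with *Polr2b* on the opposite strand, whose reads cannot be told apart there.

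*Igfbp3* (NCBI gene 16009; mm9 chromosome 11, 7106089 to 7113926, minus strand) is the gene of the main IGF carrier in blood. It had the largest rise of the 9 tested genes in WT MI, from 8.99 and 9.91 FPKM in WT sham to 76.48 and 48.41, and stood at 52.90 and 39.20 in KO-labelled MI. The fold of the WT MI mean over the WT sham mean was 6.61 (log2 fold change 2.57, SE 0.22, interval 2.05 to 3.08, limma adjusted p = 0.000171). The infarct libraries all lay above WT sham, and the 2 WT MI libraries differed more from each other than those of any other group.

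*Igfbp4* (NCBI gene 16010; mm9 chromosome 11, 98902558 to 98913969, plus strand) is the gene of an inhibitor of IGF action that is cut by the protease PAPP-A. Its levels were 51.19 and 51.32 FPKM (WT sham), 83.99 and 83.67 (WT MI) and 89.24 and 73.56 (KO-labelled MI), so that replicates lay close together in the WT groups and further apart in KO-labelled MI, whose range spanned both WT MI values. *Igfbp4* rose 1.64-fold in WT MI (log2 fold change 0.70, SE 0.11, interval 0.44 to 0.95, limma adjusted p = 0.00235). The calls of *Igf1*, *Igfbp3*, *Igfbp4* and *Igfbp7* in WT MI against WT sham held in all 17 alternative settings run on single genes.

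*Igfbp5* (NCBI gene 16011; mm9 chromosome 1, 72904506 to 72921458, minus strand), which encodes a matrix-binding IGF carrier, stood in WT sham at 60.07 and 34.53 FPKM, in WT MI at 44.09 and 43.24, and in KO-labelled MI at 43.15 and 39.11. The WT sham libraries spanned the values of both infarct groups, and the difference of WT MI from WT sham was -0.06 on the log2 scale (SE 0.22, interval -0.58 to 0.46, limma adjusted p = 0.854). WT sham replicate 2 held the low value: without it *Igfbp5* was called lower in WT MI (log2 fold change -0.45, adjusted p = 0.0405), and without WT sham replicate 1 the sign turned (0.33, adjusted p = 0.0969).

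*Igfbp6* (NCBI gene 16012; mm9 chromosome 15, 101974793 to 101979942, plus strand), which encodes a carrier with a preference for IGF2, stood in WT sham at 11.02 and 9.45 FPKM, in WT MI at 5.93 and 9.65, and in KO-labelled MI at 6.47 and 7.12. Its difference in WT MI was -0.38 on the log2 scale (SE 0.21, interval -0.88 to 0.11, limma adjusted p = 0.197). Without WT MI replicate 2, whose value overlapped WT sham, it was called lower (-0.69, adjusted p = 0.042).

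*Igfbp2* (NCBI gene 16008; mm9 chromosome 1, 72871077 to 72899048, plus strand), a carrier gene typical of fetal tissue and liver, was listed at 0.25 FPKM in WT sham replicate 2 and at 0.17 and 0.18 in KO-labelled MI, and at 0 in the other 3 libraries. Each listed value was worth about 1.0 fragment. No fold is given, since all groups lay under the worth of 3 fragments on its transcript (0.535 to 0.765 FPKM).

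**Figure D2:**
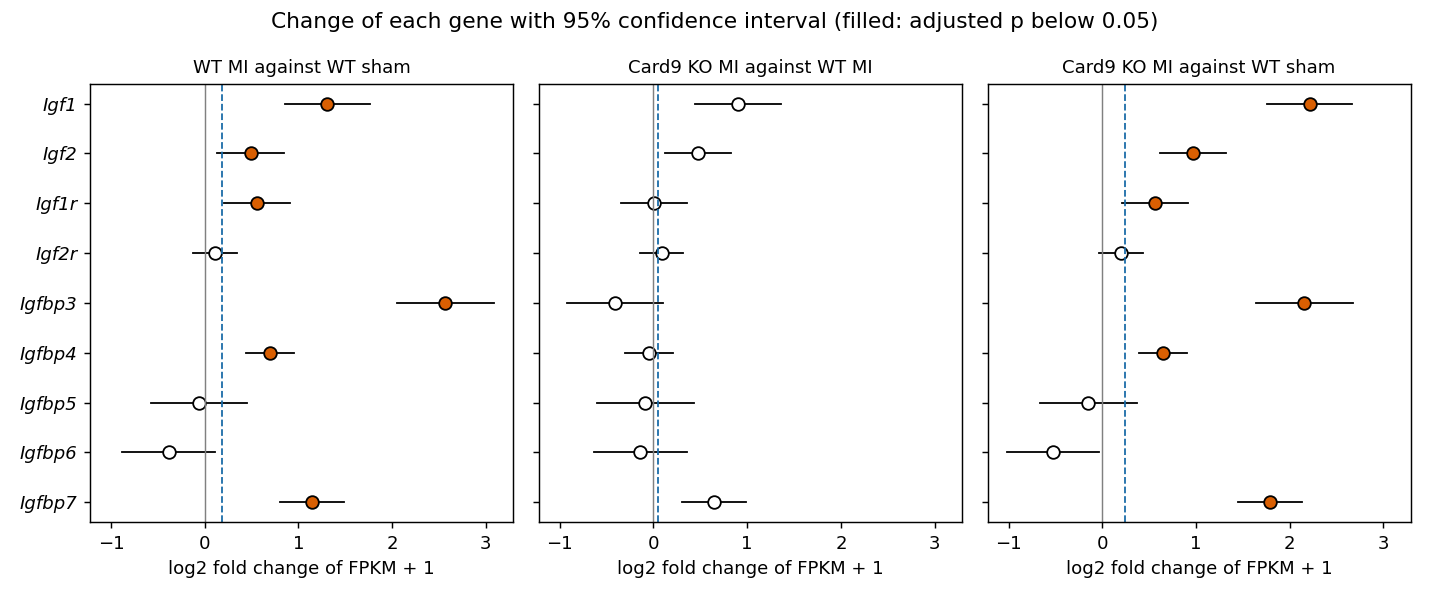
Log2 fold change of FPKM + 1 of the 9 tested IGF genes in the 3 comparisons (limma); bars are 95% confidence intervals, filled points have an adjusted p below 0.05, the grey line is 0 and the dashed line is the median of all 13120 genes tested. In both comparisons with WT sham 6 points are filled, and in KO-labelled MI against WT MI none is.

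To see how the whole pool of carriers changed, the FPKM of the 6 binding protein genes were summed. The sum was 285.8 and 218.2 FPKM (WT sham), 494.4 and 487.6 (WT MI) and 676.8 and 593.7 (KO-labelled MI), so that the groups did not overlap (means 252.0 ± 47.8, 491.0 ± 4.81 and 635.2 ± 58.8 FPKM, SD, n = 2). *Igfbp7* made up 66.8% of the rise from WT sham to WT MI, *Igfbp3* 22.2% and *Igfbp4* 13.6%. From WT MI to KO-labelled MI the mean of *Igfbp7* rose by 166.5 FPKM, more than the 144.2 FPKM of the whole sum. The means of *Igfbp3*, *Igfbp4*, *Igfbp5* and *Igfbp6* were lower in KO-labelled MI than in WT MI. The share of *Igfbp7* in the sum was 54.1% and 51.7% (WT sham), 57.4% and 62.1% (WT MI) and 71.6% and 73.2% (KO-labelled MI). The share of *Igfbp3* was 3.15% and 4.54% (WT sham), 15.5% and 9.93% (WT MI) and 7.82% and 6.60% (KO-labelled MI).

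The summed ligands *Igf1* and *Igf2* came to 17.6 and 15.6 FPKM (WT sham), 30.3 and 26.2 (WT MI) and 46.5 and 42.3 (KO-labelled MI). The ratio of binding protein to ligand transcripts was 16.26 and 13.98 (WT sham), 16.32 and 18.62 (WT MI) and 14.54 and 14.03 (KO-labelled MI). KO-labelled MI lay within the range of WT sham, and both WT MI libraries lay above that range, replicate 1 only narrowly (16.32 against 16.26). *Igfbp7*, which binds IGFs only weakly, made up 51.7% to 73.2% of the binding protein sum. The ratio thus mostly follows *Igfbp7*, and it does not give the order of the groups for the other carriers. Ratios and sums of FPKM were given as descriptions, with no test.

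**Figure D3:**
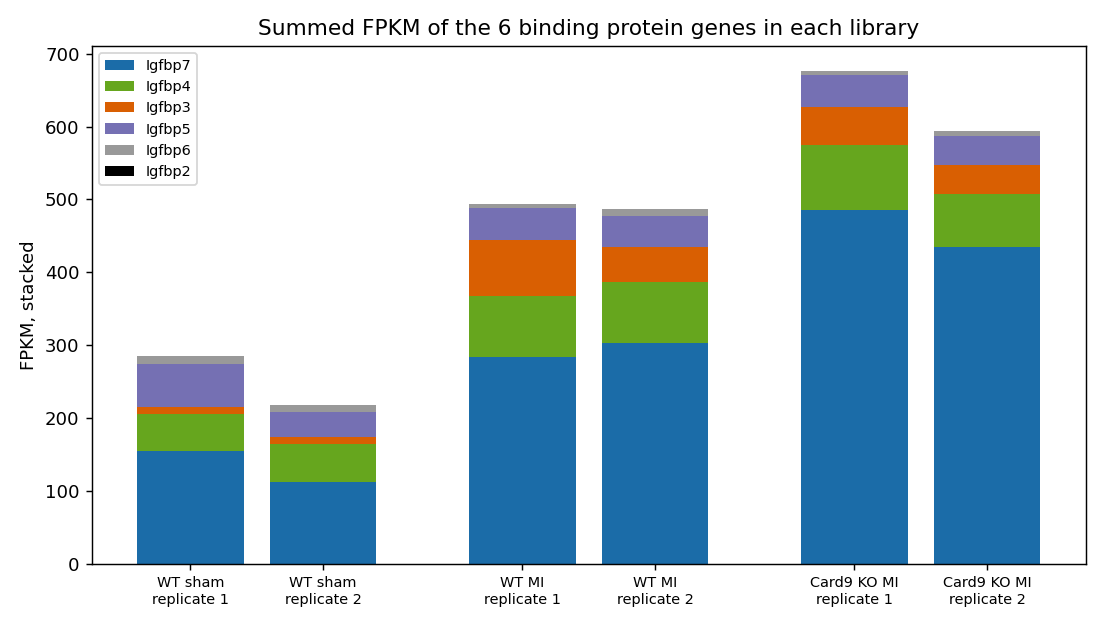
Stacked FPKM of the 6 binding protein genes in each of the 6 libraries, with 1 bar per library and the axis starting at 0. The bar is lowest in WT sham (218.2 and 285.8 FPKM) and highest in KO-labelled MI (593.7 and 676.8 FPKM), mainly through *Igfbp7*, and the *Igfbp3* segment is tallest in WT MI.

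Ordered by mean FPKM, *Igfbp7* was followed by *Igfbp4* in all 3 groups, and *Igfbp2* came last. In WT sham the order went on with *Igfbp5*, *Igf2r*, *Igf2*, *Igfbp6*, *Igfbp3*, *Igf1r* and *Igf1*. The libraries of *Igfbp4* and *Igfbp5*, of *Igfbp6* and *Igfbp3*, and of *Igf1r* and *Igf1* overlapped there, so that these neighbours were not apart. In WT MI *Igfbp3* moved to rank 3 and *Igf1* to rank 7, and only *Igf1* and *Igfbp6* overlapped among neighbours. In KO-labelled MI *Igfbp3*, *Igfbp5* and *Igf2r* overlapped with their neighbours, and *Igf1* at rank 7 lay apart from *Igfbp6*.

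The question of the genotype was addressed by comparing KO-labelled MI with WT MI. *Igf1*, *Igf2* and *Igfbp7* were higher in both KO-labelled MI libraries than in both WT MI libraries, but none of the 9 tested genes passed the test, where 0.816% of all genes tested were called higher and 0.587% lower (limma). At an unadjusted p below 0.05 there were 3 genes, all higher, and the study's screen called 0, beside 0.728% of the genes it covered called higher. The libraries of the groups did not overlap for 3 genes that were higher and 1 that was lower, beside 30.8% and 21.9% of all genes tested.

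*Igf1* was 1.97-fold higher by the means in KO-labelled MI than in WT MI (log2 difference 0.90, SE 0.20, interval 0.45 to 1.36, limma adjusted p = 0.0725). It passed in 4 of 17 alternative settings, with the lowest adjusted p with log2(FPKM + 5) (limma, 0.036). Among the 4 were the fits without WT sham replicate 1 or WT sham replicate 2, which are not libraries of this comparison. Without any 1 of the infarct libraries it did not pass, and the log2 difference was 0.83 to 0.98. *Igfbp7* was 1.57-fold higher (log2 difference 0.65, SE 0.15, interval 0.30 to 0.99, limma adjusted p = 0.0823) and passed in 3 of 17 settings. These were the fit of only the groups compared (limma adjusted p = 0.0497) and the fits without WT sham replicate 1 or WT sham replicate 2. Without any 1 of the infarct libraries *Igfbp7* did not pass, and its log2 difference was 0.57 to 0.72. *Igf2* was 1.41-fold higher (log2 difference 0.48, SE 0.15, interval 0.12 to 0.83, limma adjusted p = 0.147) and passed in none of the 17.

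The mean of *Igfbp3* was 0.737 times that of WT MI, and the groups overlapped (log2 difference -0.41, SE 0.22, interval -0.93 to 0.11, limma adjusted p = 0.352). *Igf1r* differed by 0.00 on the log2 scale with an interval from -0.35 to 0.35, and its sign turned under the other scalings. For *Igfbp4* the interval was -0.30 to 0.21, for *Igf2r* -0.14 to 0.32, for *Igfbp5* -0.60 to 0.43, and for *Igfbp6* -0.64 to 0.35 (limma, 95%). These intervals include 0, and they do not show that the groups were alike.

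Against WT sham, KO-labelled MI showed the infarct together with the labelled genotype, which cannot be told apart without a Card9 KO sham group. *Igf1*, *Igf2*, *Igf1r*, *Igfbp3*, *Igfbp4* and *Igfbp7* rose and none of the 9 tested genes fell, beside 34.8% of all genes tested called higher and 14.3% lower. Groups did not overlap for 7 genes that were higher and 1 that was lower, beside 51.6% and 24.5%, and the study's screen called 4 higher, beside 8.56%. *Igf1* rose 5.81-fold by the means (log2 fold change 2.21, SE 0.20, limma adjusted p = 0.000107), *Igfbp3* 4.87-fold (2.16, SE 0.22, adjusted p = 2e-04) and *Igfbp7* 3.44-fold (1.79, SE 0.15, adjusted p = 7.74e-05). *Igf2* rose 2.03-fold (0.97, SE 0.15, adjusted p = 0.0015), *Igf1r* 1.61-fold (0.56, SE 0.15, adjusted p = 0.0169) and *Igfbp4* 1.59-fold (0.65, SE 0.11, adjusted p = 0.00211), by the same limma fit. *Igf1r* lost this call under 5 of 16 settings, among them the fits without WT sham replicate 2, KO-labelled MI replicate 1 or KO-labelled MI replicate 2 (adjusted p = 0.0671, 0.0721 and 0.0624).

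*Igfbp6* lay lower in both KO-labelled MI libraries than in both WT sham libraries and missed the threshold (log2 fold change -0.53, SE 0.21, interval -1.02 to -0.03, limma adjusted p = 0.0742). It was called lower in 6 of 17 settings, among them the 3 other scalings (adjusted p = 0.0213, 0.0128 and 0.0321) and the fits without WT MI replicate 1 or WT MI replicate 2 (0.0307 and 0.0329). *Igfbp5* was called lower without WT sham replicate 2 (-0.54, adjusted p = 0.016) and had the opposite sign without WT sham replicate 1 (0.24). The 3 comparisons share libraries, so their values are not independent of each other.

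The other genes of the pathway were read from 4 lists of 53 genes in all, of which 50 were listed in the files and 45 tested. *Igfbp1*, *Igf2bp1* and *Irs4* were not listed in any library. In WT MI against WT sham 11 rose and 6 fell (24.4% and 13.3%, beside 27.7% and 9.39% of all genes tested). Between the infarct groups 1 rose and 0 fell (2.22% rose, beside 0.816% of all genes tested). Against WT sham, KO-labelled MI had 17 higher and 12 lower (37.8% and 26.7%, beside 34.8% and 14.3%). The balance turned with the scaling. Under upper-quartile scaling, quantile normalization and scaling without the 100 most abundant genes, 9, 8 and 9 rose and 13, 14 and 10 fell in WT MI, and 9, 8 and 12 rose and 14, 16 and 14 fell in KO-labelled MI against WT sham. The number that fell in WT MI was 1 without WT sham replicate 2, and it came to 0 and 2 when replicate 1 or replicate 2 of WT MI was left out. The number that rose in KO-labelled MI against WT sham was 9 to 11 when any 1 of the libraries compared was left out, and 6 fell without WT sham replicate 1 and 5 without KO-labelled MI replicate 1. The median log2 fold change of the 45 was 0.08 in WT MI against WT sham, beside 0.19 over all genes tested.

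Among the extracellular partners of the binding proteins, 2 of 5 tested genes rose and 0 fell in WT MI, where 27.7% of all genes tested rose and 9.39% fell. *Adam12*, a metalloprotease that cuts IGFBP3 and IGFBP5, stood in WT sham at 0.53 and 0.25 FPKM, in WT MI at 10.18 and 10.01, and in KO-labelled MI at 11.77 and 10.77 (log2 fold change of WT MI against WT sham 3.00, SE 0.17, limma adjusted p = 3.31e-05). *Stc1*, stanniocalcin, an inhibitor of the proteases PAPP-A and PAPP-A2, rose in WT MI from 1.01 and 0.70 to 3.80 and 2.76 FPKM (1.20, SE 0.23, adjusted p = 0.00513). *Igfals*, the acid-labile subunit that joins IGF and IGFBP3 in blood, fell in KO-labelled MI against WT sham (-0.65, SE 0.18, adjusted p = 0.0201), and lost the call without WT sham replicate 1, WT sham replicate 2 or KO-labelled MI replicate 1 (adjusted p = 0.053, 0.083 and 0.116). *Pappa*, which encodes the protease PAPP-A, was listed at 0 in WT sham, at 0.42 and 0.45 FPKM in WT MI and at 0.58 and 0.48 in KO-labelled MI, and was below the filter.

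Of 8 tested relatives that share the IGFBP fold, 3 rose and 0 fell in WT MI (37.5% rose, beside 27.7% of all genes tested), and 5 rose and 1 fell in KO-labelled MI against WT sham (62.5% and 12.5%, beside 34.8% and 14.3%). *Ccn2*, connective tissue growth factor, rose from 43.03 and 34.96 FPKM in WT sham to 273.08 and 226.72 in WT MI (log2 fold change 2.65, SE 0.13, limma adjusted p = 2.35e-05). *Ccn5* rose as well (1.65, SE 0.25, adjusted p = 0.00179). *Ccn4*, a Wnt-induced secreted matrix protein, stood in WT sham at 0.44 and 0.39 FPKM, in WT MI at 6.53 and 5.56, and in KO-labelled MI at 13.23 and 12.97. *Ccn4* was the single gene of the 45 that passed the test between the infarct groups (1.00, SE 0.16, adjusted p = 0.0388), and the call was lost in 7 of 17 settings, including the fits without WT MI replicate 1, WT MI replicate 2, KO-labelled MI replicate 1 or KO-labelled MI replicate 2 (adjusted p = 0.187, 0.166, 0.165 and 0.0882). *Esm1*, an endothelial proteoglycan, rose in KO-labelled MI against WT sham (1.09, SE 0.34, adjusted p = 0.0291), a call lost without either WT sham library or either KO-labelled MI library (adjusted p = 0.0711 to 0.116) and with quantile normalization (0.0947).

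Among genes that control *Igf1* and *Igf2* transcripts, 3 of 7 tested genes rose and 2 fell in WT MI (42.9% and 28.6%, beside 27.7% and 9.39% of all genes tested). *Ghr*, the growth hormone receptor that drives *Igf1* transcription in liver, fell from 47.28 and 46.25 FPKM in WT sham to 31.82 and 29.61 in WT MI (log2 fold change -0.59, SE 0.15, limma adjusted p = 0.0171), and *Jak2*, the kinase that it activates, rose (0.54, SE 0.15, adjusted p = 0.0246). *Igf2bp2*, which encodes a protein that binds *Igf2* messenger RNA, stood at 3.05 and 4.27 FPKM in WT sham and 6.41 and 8.98 in WT MI (0.90, SE 0.22, adjusted p = 0.0163). In KO-labelled MI against WT sham 4 genes rose and 3 fell (57.1% and 42.9%, beside 34.8% and 14.3%), with *Socs2*, a feedback inhibitor of growth hormone signalling, among the higher ones (0.63, SE 0.15, adjusted p = 0.0102). In WT MI the *Ghr* call was lost without any 1 of the 4 libraries compared (adjusted p = 0.0605 to 0.0897), that of *Jak2* under the 3 scalings and without WT sham replicate 1, WT MI replicate 1 or WT MI replicate 2 (0.113, 0.124 and 0.0709), and that of *Igf2bp2* without WT sham replicate 1 or WT MI replicate 2 (0.0791 and 0.105) and with quantile normalization (0.0879). *Socs2* lost its call without KO-labelled MI replicate 2 (adjusted p = 0.0566) and under quantile (0.0726) or upper-quartile scaling (0.0797).

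Of 25 tested genes of receptor signalling, 3 rose and 4 fell in WT MI (12% and 16%, beside 27.7% and 9.39% of all genes tested). *Ptpn1*, a phosphatase that acts on the insulin receptor, rose from 7.29 and 6.13 to 18.90 and 18.78 FPKM (log2 fold change 1.37, SE 0.14, limma adjusted p = 0.000336), and the adapter *Shc1* from 13.58 and 12.63 to 24.34 and 23.33 (0.82, SE 0.11, adjusted p = 0.00101). *Insr*, the insulin receptor, fell from 25.38 and 26.08 to 15.19 and 18.22 FPKM (-0.60, SE 0.13, adjusted p = 0.0096), and its substrate *Irs1* from 5.68 and 8.34 to 2.42 and 3.86 (-0.95, SE 0.23, adjusted p = 0.0155). *Insr* lost its call without WT MI replicate 1 (adjusted p = 0.0697), and *Irs1* without WT sham replicate 2 or WT MI replicate 1 (0.0883 and 0.0962). Against WT sham, KO-labelled MI had 6 genes higher and 7 lower (24% and 28%, beside 34.8% and 14.3%), with *Grb14*, an adapter that inhibits the insulin receptor (-0.91, SE 0.14, adjusted p = 0.00143), and the transcription factor *Foxo3* (-0.87, SE 0.14, adjusted p = 0.00166) having the largest falls. Between the infarct groups 0 of these 25 genes were called.

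**Figure D4:**
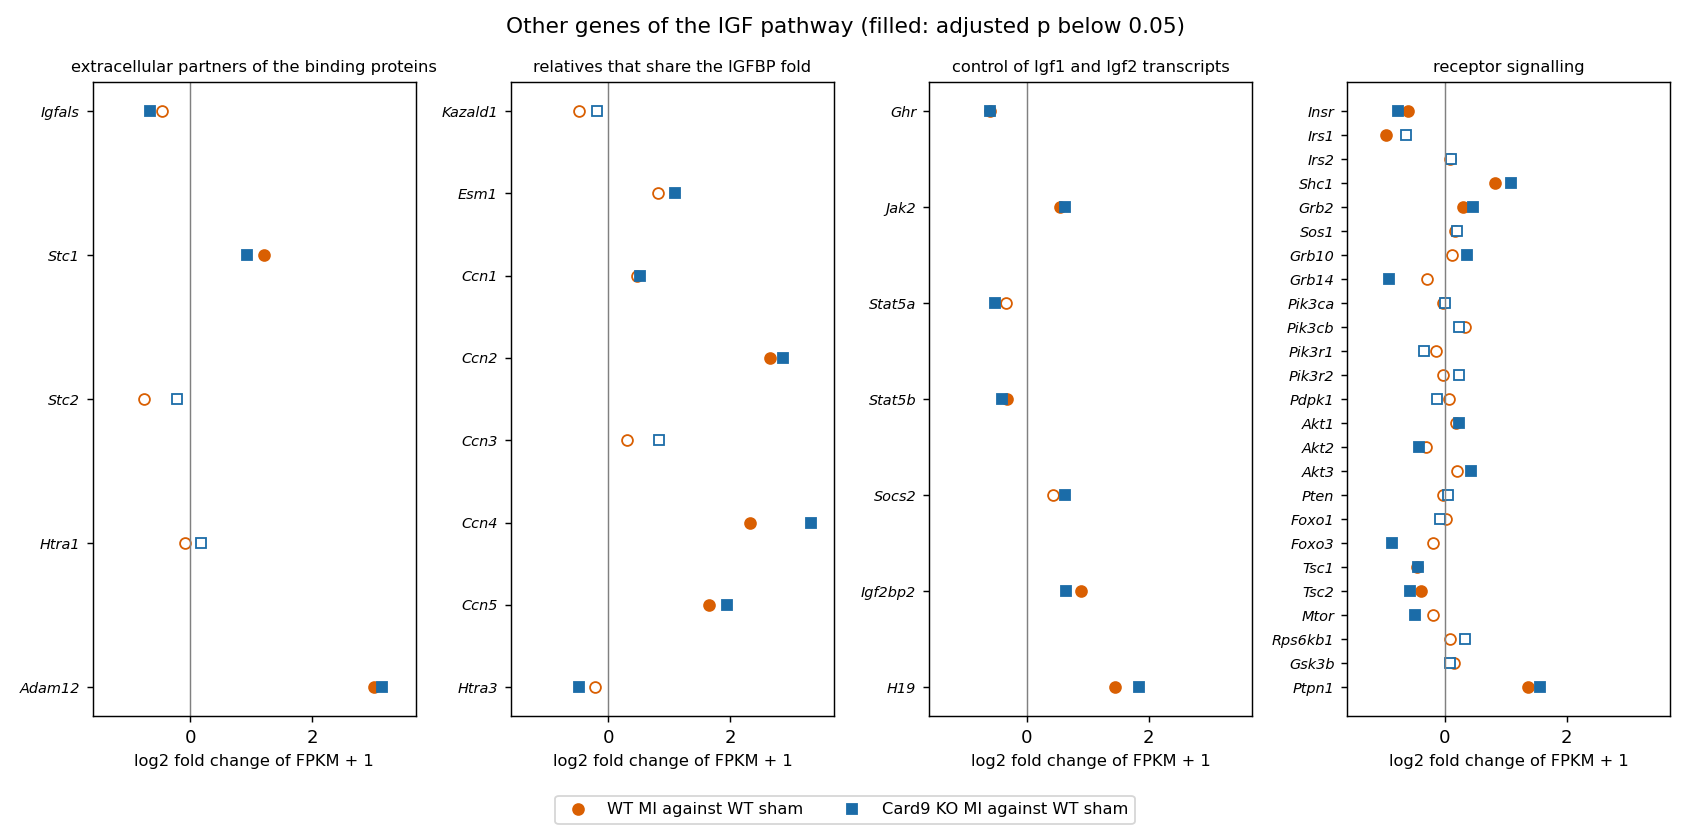
Log2 fold change of FPKM + 1 of the 45 tested pathway genes in 4 lists, for WT MI (circles) and Card9 KO MI (squares), each against the same WT sham libraries; filled symbols have a limma adjusted p below 0.05. *Adam12*, *Ccn2*, *Ccn4*, *Ccn5*, *H19* and *Ptpn1* lie above 1 in both comparisons, and receptor signalling genes lie on both sides of 0.

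Markers of several cell types that the tissue can hold also differed between the groups, in both directions. In bulk tissue, fewer cells of a type and less RNA per cell cannot be told apart. The 10 macrophage markers summed to 416.02 and 357.56 FPKM (WT sham), 1417 and 1818 (WT MI) and 2903.7 and 2113.4 (KO-labelled MI), and all 10 were called higher in WT MI. The 9 fibroblast markers summed to 530.49 and 502.64, 1379.7 and 1817.7, and 2787.4 and 2694.6 FPKM in the same order, with 7 of 9 called higher in WT MI. Over all genes tested, 27.7% were called higher in WT MI and 0.816% between the infarct groups. Between the infarct groups 0 of the 10 macrophage markers were called, with a median log2 difference of 0.73, and 2 of the 9 fibroblast markers were called higher, with a median of 0.53. The libraries of these groups did not overlap for 7 macrophage markers that were higher and 0 that were lower. For fibroblast markers these numbers were 6 and 1, beside 30.8% and 21.9% of all genes tested. *Igf1* and *Igfbp7* had the same order of the groups as both sums, and the part of these cells in the result was not tested. Not every marker in the fibroblast sum had this order. The mean of *Postn* was 212.3 FPKM in WT MI and 626.5 in KO-labelled MI, and that of *Col1a1* 437.4 and 900.9. *Pdgfra* stood at 15.2 and 15.87 FPKM in WT MI and 10.64 and 10.43 in KO-labelled MI, and the mean of *Dcn* at 341.2 and 303.5. By log2 difference 7 of the 9 fibroblast markers were higher in KO-labelled MI. Per 1000 FPKM of macrophage markers, *Igf1* stood at 8.53 and 5.93 (WT sham), 5.55 and 4.86 (WT MI) and 5.51 and 8.0 (KO-labelled MI), and the range of KO-labelled MI overlapped those of both other groups. Per 100 FPKM of fibroblast markers, *Igf1* stood at 0.669 and 0.422 (WT sham), 0.570 and 0.486 (WT MI) and 0.574 and 0.6275 (KO-labelled MI). By this ratio KO-labelled MI lay within the range of WT sham and narrowly above WT MI.

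The neutrophil markers, of which 6 of 8 were listed and *Ly6g* and *Camp* were not, summed to 7.64 and 5.40 FPKM (WT sham), 211.75 and 92.89 (WT MI) and 59.84 and 46.73 (KO-labelled MI). All 6 were called higher in WT MI, and between the infarct groups 0 were called, with a median log2 difference of -0.61. All 6 lay lower in both KO-labelled MI libraries than in both WT MI libraries, beside 21.9% of all genes tested. Like the neutrophil sum, *Igfbp3* was highest in WT MI replicate 1 among the 6 libraries, and the part of neutrophils in it was not tested. Of the 8 cardiomyocyte markers 6 were called lower in WT MI, and 0 higher. Over all genes tested, 27.7% were called higher and 9.39% lower in WT MI, and 0.816% and 0.587% between the infarct groups. The 8 endothelial markers summed to 353.91 to 360.25 FPKM in WT sham, 376.84 to 380.53 in WT MI and 429.74 to 435.94 in KO-labelled MI, with 2 called higher and 1 lower in WT MI (25% and 12.5%). The 8 mural cell markers summed to 279.22 to 328.38, 287.86 to 311.71 and 454.03 to 455.59 FPKM, with 2 called higher and 3 lower in WT MI (25% and 37.5%). Between the infarct groups 1 mural marker was called higher, the contractile gene *Acta2*, with 117.28 and 97.16 FPKM in WT MI and 252.13 and 239.14 in KO-labelled MI (log2 difference 1.19, SE 0.19, limma adjusted p = 0.0388). *Acta2* made up most of the higher mural sum in KO-labelled MI. The calls of single cell type markers were not rerun in the alternative settings. By log2 difference 7 of the 8 mural markers were higher in KO-labelled MI than in WT MI, with a median of 0.40. *Pdgfrb* stood at 31.86 and 30.57 FPKM in WT MI and 47.48 and 43.13 in KO-labelled MI. *Cspg4* stood at 9.97 and 6.2 against 11.42 and 10.86. The pericyte markers *Rgs5* and *Kcnj8* differed by 0.08 and 0.03 and *Abcc9* by -0.44 on the log2 scale. Apart from *Acta2* no mural marker was called between these groups. The 8 mesothelial markers, of which up to 3 were at 0 in a library, summed to 6.62 to 8.0, 7.29 to 11.9 and 13.94 to 14.85 FPKM, with 0 of 3 tested genes called in WT MI. The higher sum in KO-labelled MI was that of the keratin gene *Krt18*, with 1.78 and 1.1 FPKM in WT MI and 9.87 and 9.41 in KO-labelled MI (log2 difference 2.14, SE 0.26, limma adjusted p = 0.0176). The other 7 markers had lower means in KO-labelled MI than in WT MI, and without *Krt18* the sums were 5.71 and 7.76 (WT sham), 10.12 and 6.19 (WT MI) and 4.98 and 4.53 FPKM (KO-labelled MI).

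**Figure D5:**
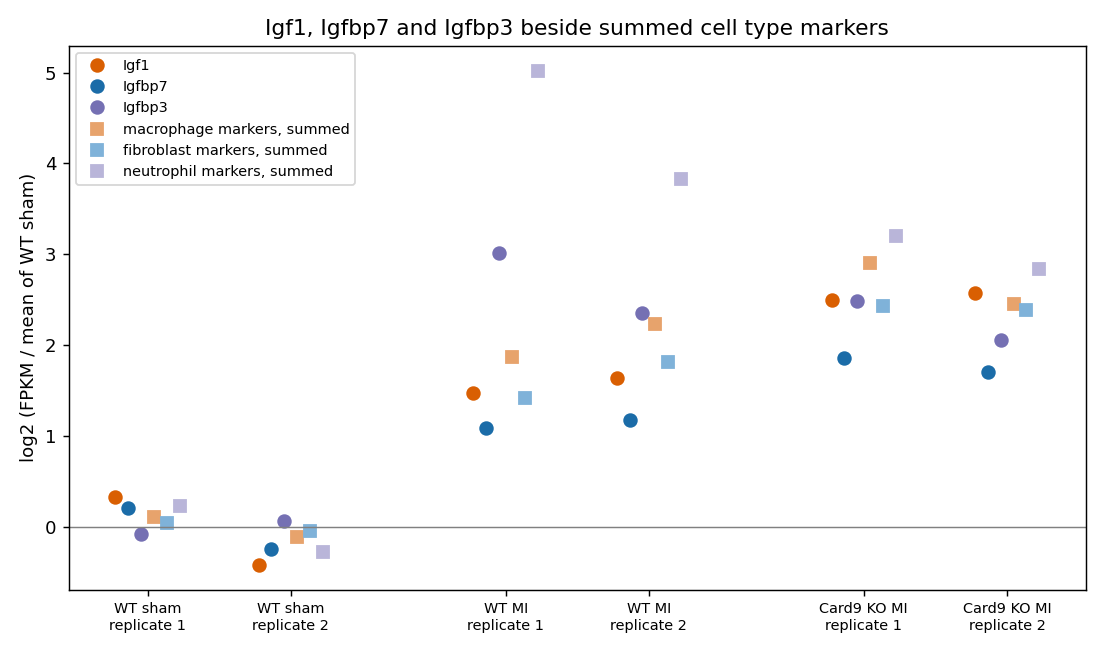
Log2 of the FPKM of *Igf1*, *Igfbp7* and *Igfbp3* (circles) and of the summed macrophage, fibroblast and neutrophil markers (squares) over their own WT sham mean, for each of the 6 libraries. *Igf1* and *Igfbp7* are highest in KO-labelled MI, as are the macrophage and fibroblast sums, and *Igfbp3* and the neutrophil sum are highest in WT MI replicate 1.

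For each IGF gene the 3 tested genes were named whose profile over the 6 libraries lay nearest, by the root mean square difference of log2(FPKM + 1) after centring. For *Igf1* these were *Ctsk* (0.10), *Cybb* (0.11) and *Gatm* (0.11), and the nearest of the other IGF genes was *Igfbp7* (0.19, rank 41). For *Igfbp7* they were *Adcy7*, *Rab31* and *Atad2* (0.06 each), and for *Igf2* *Gli3* (0.05), *Flrt2* (0.07) and *Smoc1* (0.07). For *Igfbp3* they were *Mmp8* (0.10), *Sh2d5* (0.17) and *Napsa* (0.19), each of which was at or near 0 in WT sham. The genes nearest to *Igfbp4* were *Xbp1*, *Kpnb1* and *Mms19* (0.03 to 0.04), and those nearest to *Igf1r* were *Prkar1a*, *Copa* and *Foxp2* (0.03 to 0.04). *Igf2r* lay nearest to *Vps28*, *Nova2* and *Klhl42*, *Igfbp5* to *Cdv3*, *Fam219b* and *Bbs4*, and *Igfbp6* to *A330093E20Rik*, *Them6* and *Fbxo8*. These likenesses are descriptions over 6 libraries in 3 groups.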

How the data were processed

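RNA was isolated by the authors with TRIzol, selected by oligo(dT), made into TruSeq libraries and sequenced on an Illumina HiSeq, and per the study's methods and processing notes reads were mapped with BWA and Bowtie2 to mm9. The deposited values are FPKM, rounded, by NCBI gene number, and list only genes above 0. FPKM is a share of the library, so a change of abundant genes shifts all others. The annotation, counting tool and use of strand are not given in the sources used here. Symbols came from a RefSeq table of GRCm38.p6, which named 17390 gene numbers and left 51 without one. Positions came from the GENCODE annotation of mm9.

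Missing genes were set to 0. The test was limma 3.58.1 in R 4.3.3 (lmFit, eBayes with trend) on log2(FPKM + 1), with 3 groups in 1 fit and no covariates, for 13120 genes that reached 1 FPKM in 2 or more libraries. P-values were adjusted by Benjamini-Hochberg, and a call needs a value below 0.05. Exact permutation tests cannot reach 0.05 for groups of 2 libraries, so none was run. A fold change on this scale understates that of low genes. Fragments per library were estimated from the spacing of low FPKM values, of which 64.0% to 70.2% came out whole within 0.1, so counts were not rebuilt, and the limits cover counting error only. Scripts were tested on simulated data. Named were all 10 members, *Card9*, the up to 4 called genes of each pathway list and comparison with the largest change, pathway genes not listed, and 3 nearest profiles per member; *Pappa* and single cell type markers were added after their values were seen. The members and the pathway and marker lists (macrophage, fibroblast, cardiomyocyte, endothelial, mural, mesothelial, neutrophil) were chosen with earlier results of these data known. Alternatives were other added values, filters, scalings, variance settings, a replicate block, the study's screen and each library left out. The study screened with NOIseq, and the screen here was rebuilt on the deposited FPKM with 0 replaced by 0.005. Its calls were not compared with the gene list of the authors.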

Additional observations from a re-analysis of the deposited data

How the results depend on the processing

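The counts of IGF genes called higher were 6 in WT MI against WT sham and 6 in KO-labelled MI against WT sham. Requiring also a 2-fold change left 3 in each, and the study's screen left 2 in WT MI. Leaving out 1 library gave 4 to 6 in WT MI, and 0 to 1 genes lower in either comparison with WT sham. In KO-labelled MI against WT sham 1 gene, *Igfbp6*, was lower under each of 3 other scalings (by the upper quartile, by quantiles, or leaving out the 100 most abundant genes) and in the fit of only the groups compared. In KO-labelled MI against WT MI 1 gene was higher with log2(FPKM + 5), 2 with only the groups compared, and 0 to 2 with 1 library left out.

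Of the pathway genes, 11 rose and 6 fell in WT MI, 7 and 0 with the 2-fold limit and 6 and 0 by the screen. The number that fell was 13, 14 and 10 under the 3 scalings and 0 to 4 with 1 library left out. Between the infarct groups the 1 called gene was 0 with log2(FPKM + 0.1), without the filter and by the screen, 0 to 1 with 1 library left out, and 1 gene was lower with a mean FPKM of at least 5 and with quantile normalization. In KO-labelled MI against WT sham, 17 rose and 12 fell. The number that rose was 9 and 8 under upper-quartile and quantile scaling, 8 with the 2-fold limit, 7 by the screen and 9 to 15 with 1 library left out. The number that fell was 0 with the 2-fold limit and by the screen and 5 to 12 with 1 library left out. The causes were not tested.

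Over all genes, upper-quartile scaling changed the calls in WT MI from 3637 higher and 1232 lower to 2575 and 2204, quantile normalization to 2291 and 2450, and leaving out the 100 most abundant genes to 2867 and 1831. In KO-labelled MI against WT sham the same scalings gave 3195 and 2925, 2836 and 3447, and 3633 and 2526, from 4569 and 1875. The sign turned for genes that were not called: *Igf2r* in WT MI to -0.107, -0.079 and -0.035 and in KO-labelled MI against WT sham to -0.056 under upper-quartile scaling, and *Igf1r* between the infarct groups to -0.027, -0.096 and -0.013. With 1 library left out, log2 fold changes ranged for *Igfbp5* from -0.451 to 0.33 in WT MI and from -0.537 to 0.244 in KO-labelled MI against WT sham, and between the infarct groups for *Igf1r* from -0.004 to 0.013, for *Igfbp4* from -0.186 to 0.089 and for *Igfbp6* from -0.451 to 0.168. An alternative with a mean FPKM of at least 5 gave no value for *Igf1r*, whose mean is lower.

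The labels do not say whether replicate numbers pair the libraries. Deviations from the group means had almost no correlation between groups (0.002, -0.008 and 0.02). Such values show no shared shift over all genes, and they cannot exclude a pairing. With the replicate block, calls over all genes between the infarct groups went from 107 higher and 77 lower to 45 and 26, and *Ccn4* lost its call, so that 0 pathway genes were higher. The block changed no other call of the IGF genes or of the pathway genes named as called. The calls of *Acta2*, *Krt18* and the other cell type markers were not rerun with it. At this depth *Igfbp2* could not be measured.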
